A study of Mus musculus with 22 samples.

Results

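Genes of the pancreatic acinar cell were followed through 22 mouse pancreatic tumours. The set is a list of 40 genes, chosen by name for digestive enzymes, other secreted and granule proteins and transcription factors of this cell, and all 40 were found among the 17966 genes of the deposited table. The tumours were orthotopic, that is, they grew in the pancreas itself, from PDA.7940B cells. The labels call this line polyclonal and derived from KPC pancreatic ductal adenocarcinoma, a mouse model of pancreatic cancer, and give the genotype of every sample as WT. The untreated group held 5 tumours. In the beta-glucan group (n = 6) 1.2 mg was given into a vein, and in the anti-CD40 group (n = 6) 0.1 mg of the antibody FGK45 was given into the peritoneum, each on a single occasion. The combination group (n = 5) received both agents, with no dose stated for it. Treated tumours were taken 10 days after treatment. Myeloid cells sense beta-glucan, a sugar chain found in the walls of fungi, and FGK45 activates CD40, a receptor of antigen-presenting cells. Nothing in the labels states that the tumours grew in separate mice, and p-values therefore speak only of the spread among these samples, which may be partly technical.

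Acinar cells make up most of the exocrine pancreas. They build digestive enzymes, many as inactive precursors called zymogens, store them in granules at the cell apex and release them into the ducts. The transcription factors Ptf1a and Rbpjl act in 1 complex to switch on enzyme genes, Bhlha15 (also called Mist1) shapes the secretory apparatus, and Nr5a2 helps to keep the acinar state. In models of pancreatic cancer acinar cells can lose this program and take on duct-like features, and a section through an orthotopic tumour can include normal pancreas beside it. In such bulk samples fewer acinar cells and less acinar RNA per cell cannot be told apart.

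RNA came from fixed, embedded sections 5 µm thick, and libraries read the 3′ end of each transcript. A long and a short transcript each give reads from 1 end only, so levels are not divided by gene length. Levels below are normalized counts, that is, reads divided by the size factor the authors gave each tumour, and shares are percentages of a tumour's recovered reads. Depth was 6.33 to 21.2 M reads per tumour. It was 7.38 to 9.34 M in untreated tumours and 7.13 to 8.74 M with beta-glucan. With anti-CD40 it was 6.33 to 21.2 M, and with the combination 12.2 to 18.8 M. Every combination tumour was thus read more deeply than every untreated and beta-glucan tumour, which bears on genes without reads in those.

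The acinar share of all reads differed widely within every group. In untreated tumours 1, 2, 3, 5 and 6 the 40 genes took 0.212, 0.2503, 3.43, 4.22 and 18.3% of reads. With beta-glucan they took 2.61, 1.26, 19.2, 3.18, 9.83 and 0.662% in tumours 1 to 6. The ranges of these 2 groups overlapped almost throughout. With anti-CD40 the share was 0.697, 34.7, 33.3, 29.5, 2.89 and 67.9% in tumours 1 to 6, and with the combination it was 0.619, 30.2, 17.5, 36.9 and 37.0% in tumours 1 to 5. Anti-CD40 tumours 2, 3, 4 and 6 and combination tumours 2, 4 and 5 thus lay above every untreated and every beta-glucan tumour, while anti-CD40 tumours 1 and 5 and combination tumours 1 and 3 lay inside the untreated range. The means were 5.28% ± 7.49 (SD, n = 5) in untreated tumours, 6.13% ± 7.22 (n = 6) with beta-glucan, 28.2% ± 24.7 (n = 6) in anti-CD40 tumours and 24.4% ± 15.5 (n = 5) in combination tumours. For anti-CD40 and the combination the SD was of the same order as the distance from the untreated mean.

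**Figure D1:**
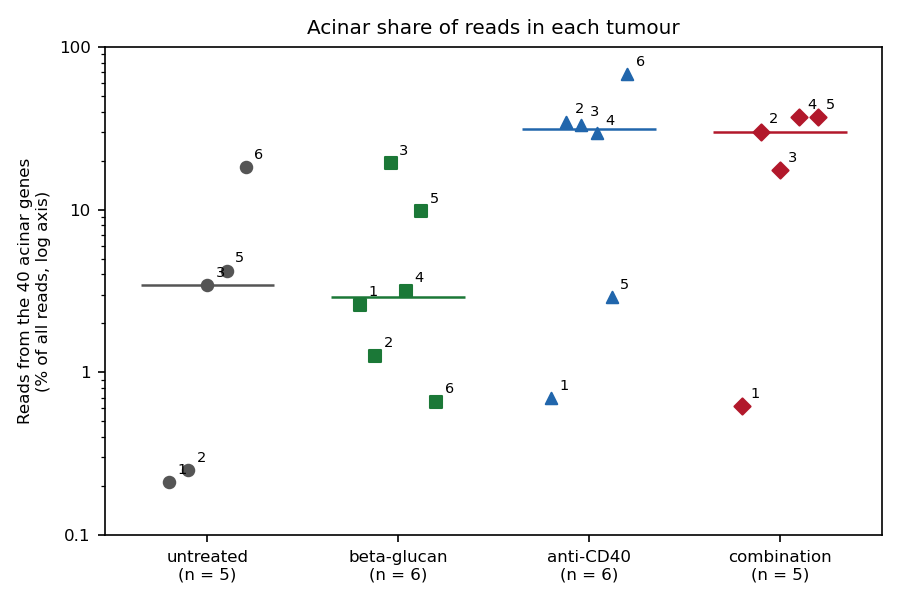
Share of all reads that came from the 40 acinar genes (percent, log axis) in each tumour, by group. Each point is 1 tumour with its replicate number and the bar is the group median. Anti-CD40 tumours 2, 3, 4 and 6 and combination tumours 2, 4 and 5 lie above the highest untreated tumour at 18.3%, and every group also holds a tumour with a share of 0.697% or less.

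The list did not describe acinar cells equally well in every tumour. In untreated tumours 1 and 2 only 28 and 29 of the 40 genes had any read, and 80.5 and 80.6% of the acinar reads were those of Dmbt1, a secreted scavenger protein that duct and mucosal epithelium also makes. All other tumours had reads of 38 to 40 members. For the make-up of the acinar reads and for the model added below, 33 core genes were used. They leave out Reg1, Reg2, Rnase1, Klk1, Dmbt1, Gatm and Nr5a2, which other cell types are known to express. Aqp8 and Bhlha15, which other cells also express, were kept in the core. Untreated tumours 1 and 2 held 2212 and 1634 core reads, so shares within them rest on few reads, while the other 20 tumours held 41369 to 8355576.

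Upstream letters of these genes were read because most of the members were high and low in the same tumours. RefSeq (GRCm38.p6) gave the 250 bases before the start of 33 of the 40 genes. The E-box CACCTG, 1 form of the general CANNTG motif that factors such as Ptf1a and Bhlha15 can bind, was found on either strand in 20 of the 33 (60.6%) and in 19.4% of all 27025 genes with such a window. CANNTG in any form, which includes CACCTG and CAGCTG, was in 81.8% of the members and 69.3% of all genes, and CAGCTG was in 15.2 and 14.7%. TTTCCC, the letters next to the E-box in the site of the Ptf1a and Rbpjl complex, was in 27.3% of the members and 24.4% of all genes. AAGGTCA, a letter string of nuclear receptors of the Nr5a2 kind, was in 12.1 and 4.70%. An E-box followed on the same strand by TTTCCC 3 to 7 bases on was found in Prss1, Ctrb1 and Cela1, that is 3 of 33 (9.09%), against 0.577% of all genes.

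Windows of 5 members are shown, 5′ to 3′ toward the gene, with CACCTG and TTTCCC on either strand in capitals. Cela1 is shown for its paired motifs, Cela2a for the largest fold changes of the list, Cel for the most copies of CACCTG among those printed, Bhlha15 as a transcription factor of the list, and Aqp8 as the member that went the other way.
Cela1 (chr15:100687921-100688170, minus strand): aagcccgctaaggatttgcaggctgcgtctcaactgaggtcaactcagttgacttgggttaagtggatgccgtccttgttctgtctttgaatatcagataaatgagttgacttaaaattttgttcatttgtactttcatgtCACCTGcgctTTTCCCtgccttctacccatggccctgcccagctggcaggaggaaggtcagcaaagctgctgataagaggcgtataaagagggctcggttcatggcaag
Cela2a (chr4:141826006-141826255, minus strand): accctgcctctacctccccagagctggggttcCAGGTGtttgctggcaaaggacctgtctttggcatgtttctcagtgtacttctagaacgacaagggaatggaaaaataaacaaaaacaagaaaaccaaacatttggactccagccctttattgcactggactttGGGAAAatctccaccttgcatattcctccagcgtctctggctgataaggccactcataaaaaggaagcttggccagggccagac
Cel (chr2:28563404-28563653, minus strand): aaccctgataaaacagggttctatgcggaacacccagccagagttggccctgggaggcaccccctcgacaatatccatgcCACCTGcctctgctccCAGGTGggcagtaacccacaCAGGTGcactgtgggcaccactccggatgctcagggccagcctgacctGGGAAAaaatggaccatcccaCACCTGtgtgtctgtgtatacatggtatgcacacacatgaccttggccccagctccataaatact
Bhlha15 (chr5:144190036-144190285, plus strand): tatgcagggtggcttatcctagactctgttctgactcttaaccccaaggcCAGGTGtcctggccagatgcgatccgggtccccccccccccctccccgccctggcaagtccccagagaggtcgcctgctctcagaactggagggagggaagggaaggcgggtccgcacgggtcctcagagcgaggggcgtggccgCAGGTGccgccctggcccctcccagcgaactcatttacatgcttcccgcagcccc
Aqp8 (chr7:123462044-123462293, plus strand): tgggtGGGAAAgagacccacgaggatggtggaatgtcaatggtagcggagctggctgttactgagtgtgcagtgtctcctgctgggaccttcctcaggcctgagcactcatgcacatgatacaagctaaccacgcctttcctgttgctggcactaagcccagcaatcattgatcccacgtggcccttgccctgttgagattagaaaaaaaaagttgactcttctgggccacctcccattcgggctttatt
Cela1 held CACCTG 109 bases and TTTCCC 99 bases before its start, Cel held 4 copies of CACCTG and Bhlha15 held 2. The Aqp8 window held TTTCCC at 245 bases and no CACCTG. Windows of Cpa1, Ctrb1, Reg1 and Gp2, not printed, also held no CACCTG. The mean log2 levels of these genes were higher than in untreated tumours with anti-CD40 and with the combination. These are letter matches and not measured binding.

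In anti-CD40 tumours 39 of the 40 acinar genes had a higher mean log2 level than in untreated tumours, with a median log2 fold change of 4.91, and 7 passed the test (limma, Benjamini-Hochberg adjusted p under 0.05). The 7 were the trypsinogens Prss1 and Prss3, the elastase Cela2a, the water channel Aqp12, the creatine enzyme Gatm and the transcription factors Bhlha15 and Ptf1a. Of all 14278 genes tested 11.0% were called higher in this comparison. An unadjusted p under 0.05 was reached by 37 of the 40, against 31.2% of all genes. In combination tumours 39 of 40 were again higher, with a median of 4.94, and 11 passed: the same 7 and Try4, Ctrc, Cel and Serpini2. Here 18.2% of all genes were called higher, and 37 of the 40 had an unadjusted p under 0.05 against 43.0% of all genes. The median over all genes tested was 0.00 under anti-CD40 and -0.01 under the combination. Both comparisons use the same untreated tumours. Fold changes are differences of group means of log2(level + 1), given with ± their standard error.

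No member separated the groups completely. Among all genes tested, every anti-CD40 tumour lay above every untreated tumour for 5.03%, and every combination tumour did for 11.7%, but for 0 of the 40 acinar genes in either case. The median member was above every untreated tumour in 4 of 6 anti-CD40 and 3 of 5 combination tumours. The standard errors of the 40 genes were 0.59 to 2.51 for anti-CD40. Other fits gave other counts: the 7 were 31 with DESeq2 or with array weights and 5 with edgeR, and the 11 were 16 with DESeq2, 35 with array weights, 5 with edgeR and 4 when only the groups compared were fitted. The count of 7 was 33 without untreated tumour 6 and 30 without anti-CD40 tumour 1, and it was 3 without untreated tumour 1 or 2. It was 4 without anti-CD40 tumour 2, 4 or 6. The count of 11 was 36 without untreated tumour 6 or combination tumour 1, 7 without beta-glucan tumour 1, 2 or 4, 5 without combination tumour 3, and 4 without untreated tumour 1 or 2 or combination tumour 2, 4 or 5.

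No member passed the test with beta-glucan alone. The count was 0 of 40 with limma, edgeR and DESeq2, while 6.42% of all genes were called in either direction with limma. An unadjusted p under 0.05 with limma was reached by 0 of 40, against 19.1% of all genes. The median log2 fold change was 2.18 and 38 of 40 were positive, with standard errors of 0.59 to 2.51. This median moved with single untreated tumours: it was 0.97 without untreated tumour 1, 0.99 without untreated tumour 2 and 3.57 without untreated tumour 6, and edgeR and DESeq2 gave medians of 0.26 and 0.25. The combination against beta-glucan gave 1 call, Prss1, with 6.49% of all genes called higher and a median of 2.77 over the list. The count was 0 without combination tumour 2 or 5, 3 without anti-CD40 tumour 1 or 6 or combination tumour 1, and 4 without beta-glucan tumour 3. The combination against anti-CD40 gave 0 calls, with 1.48% of all genes called, and a median of -0.02. In this comparison 0 of 40 had an unadjusted p under 0.05, against 15.7% of all genes. Its standard errors of 0.59 to 2.51 leave differences of several-fold undetectable. The interaction, the combination minus each single treatment plus untreated, also gave 0 calls (0.0210% of all genes called). It gave 0 unadjusted p under 0.05, against 8.36% of all genes. With edgeR and DESeq2 the counts of calls were 0 in both comparisons as well.

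**Figure D2:**
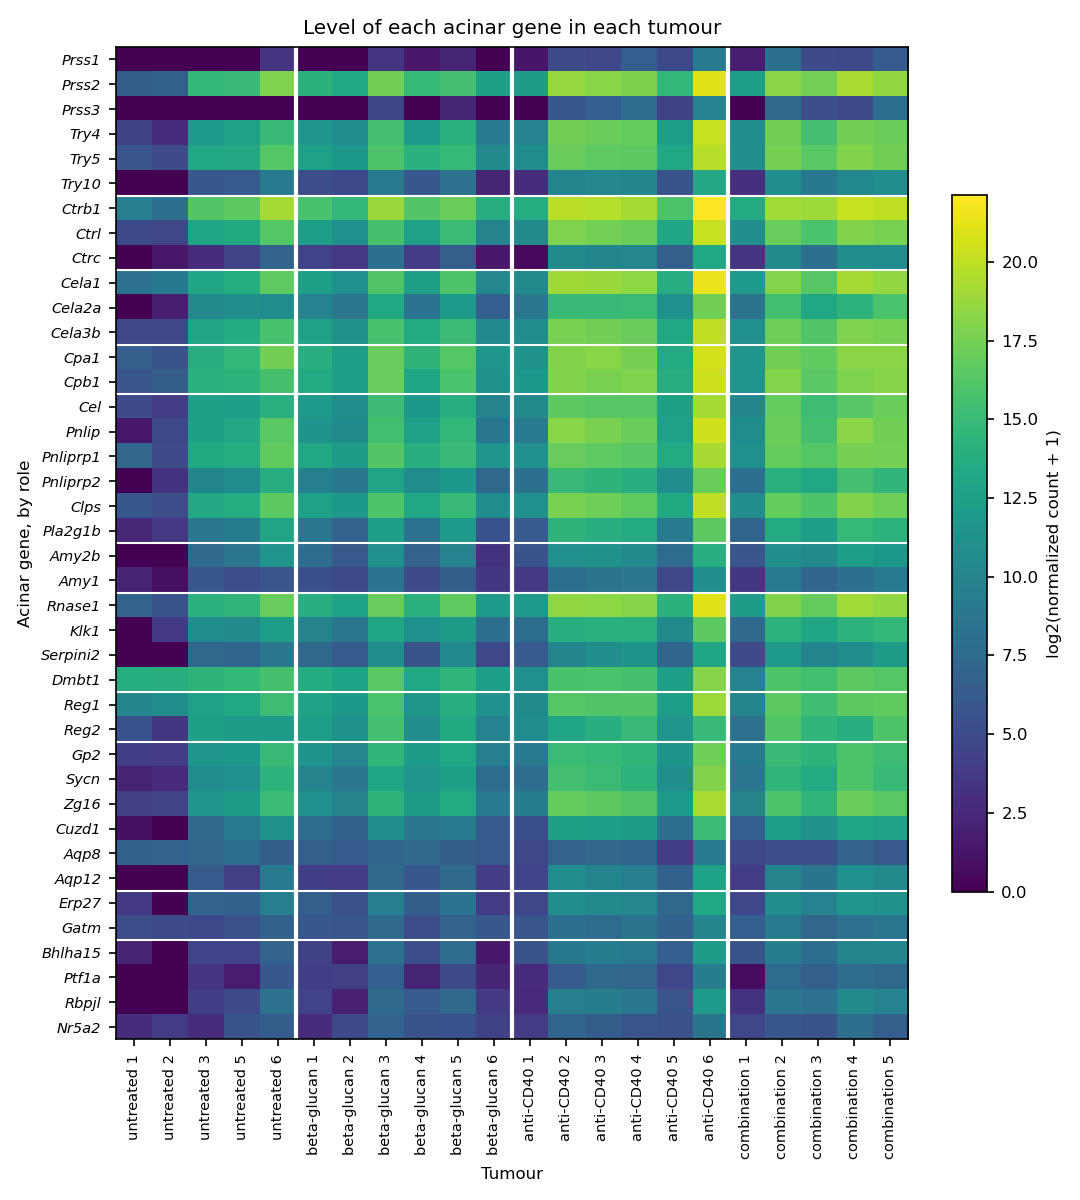
Level of each of the 40 acinar genes (rows, by role) in each of the 22 tumours (columns, by group), as log2(normalized count + 1). White lines part the groups and the roles. Most rows brighten and darken together, with untreated tumours 1 and 2 darkest, anti-CD40 tumour 6 brightest, and combination tumour 1 and anti-CD40 tumour 1 dark within their groups. The rows of Dmbt1, Gatm and Aqp8 change less.

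The trypsinogens are the precursors of trypsin, the protease that activates the other pancreatic zymogens, and all 6 lie in 1 cluster on chromosome 6 (chr6:41302269-41525079, mm10). Near-identical copies can share reads, so the split between them is uncertain. Prss2 carried the most reads of the class. Its level was 91.5, 112, 27452, 33428 and 233869.8 in untreated tumours 1, 2, 3, 5 and 6 and 5950.2 to 163887 (median 23607) with beta-glucan. With anti-CD40 it was 4816 to 2160758 (median 259888), and with the combination it was 5048, 310077, 187555, 666787 and 366727 in tumours 1 to 5. The groups overlapped, and neither the anti-CD40 difference of 4.90 ± 2.02 (adjusted p = 0.1004) nor the combination difference of 4.99 ± 2.11 (adjusted p = 0.0766) passed.

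Prss1 (chr6:41458932-41463786) was far rarer than Prss2 and was called in 3 comparisons. It had no read in untreated tumours 1, 2, 3 and 5 and a level of 8.77 in untreated tumour 6. With beta-glucan it was 0, 0, 8.82, 1.900, 3.97 and 0 in tumours 1 to 6. With anti-CD40 it was 1.46, 34.3, 25.1, 98.6, 30.7 and 581, and with the combination 2.57, 273, 35.02, 27.9 and 85.4. Anti-CD40 tumour 1 and combination tumour 1 fell below untreated tumour 6, and the other tumours of those groups lay above it. The log2 fold change was 4.67 ± 1.13 (adjusted p = 0.00519) with anti-CD40 and 4.62 ± 1.18 (adjusted p = 0.00388) with the combination, both by limma, and 4.09 ± 1.13 (adjusted p = 0.0174) for the combination against beta-glucan.

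Prss3 (chr6:41373814-41377678) had no read in any untreated tumour. It was also without reads in beta-glucan tumours 1, 2, 4 and 6, anti-CD40 tumour 1 and combination tumour 1. In the others it was 24.2 and 3.97 with beta-glucan (tumours 3 and 5), 68.6, 96.4, 209, 19.7 and 877 with anti-CD40 (tumours 2 to 6), and 199, 38.4, 27.9 and 247 with the combination (tumours 2 to 5). Against a floor of 3 reads over the untreated group, the group mean was at least 355-fold higher with anti-CD40, at least 172-fold higher with the combination and at least 7.89-fold higher with beta-glucan, bounds that cover counting error only. Single tumours carried much of these means: the bound was 132 without anti-CD40 tumour 6 and 111 without combination tumour 5, and without beta-glucan tumour 3 the beta-glucan mean was 1.33 times the floor. Limma adjusted p was 0.00543 with anti-CD40, 0.00846 with the combination and 0.724 with beta-glucan.

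Try4 was at 19.97, 6.04, 3997, 6564 and 32691 in the untreated tumours, 520.4 to 46281 (median 3436) with beta-glucan, 884 to 1255069.5 (median 131575) with anti-CD40 and 1826 to 171474 (median 148647) with the combination. It passed with the combination at 6.27 ± 2.33 (adjusted p = 0.0449), 4 of 5 tumours lying above every untreated one. With anti-CD40 it stood at 6.27 ± 2.23 (adjusted p = 0.0579). Try5 and Try10, the other members of the cluster, did not pass, with 4.93 ± 2.02 and 4.40 ± 2.07 for anti-CD40 and 5.32 ± 2.11 and 4.49 ± 2.17 for the combination.

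Chymotrypsinogens are the precursors of chymotrypsin, and Ctrb1 (chr8:111686519-111691010) was the most abundant acinar transcript of all. Its level was 697, 272, 74346, 99002 and 586411 in untreated tumours and 14245 to 446243 (median 65099) with beta-glucan. It was 13689 to 4587513 (median 707608) with anti-CD40 and 12038, 559190.4, 483298, 1239043 and 1080979 with the combination. The ranges overlapped, and the differences of 4.52 ± 1.93 (adjusted p = 0.114) and 4.47 ± 2.02 (adjusted p = 0.0969) did not pass. Ctrc, which cleaves trypsin and trypsinogen, passed with the combination at 5.57 ± 2.05 (adjusted p = 0.043), from 0 to 129 (median 6.14) in untreated tumours to 9.65 to 1958 (median 1375). With anti-CD40 it was at 0.487 to 9821 (median 1173) and 5.42 ± 1.97 (adjusted p = 0.0627). The annotated intervals of Ctrc (chr4:141814962-141846359) and Cela2a (chr4:141814962-141826160) overlap on the minus strand, so their reads may not be fully separated. Ctrl was at 5.57 ± 2.18 and 5.39 ± 2.28 and did not pass.

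Elastases are proteases that cut after small residues, and 1 of the 3 passed. Cela2a had no read in untreated tumour 1, a level of 2.59 in untreated tumour 2, and 1449, 1926 and 1607 in untreated tumours 3, 5 and 6. With beta-glucan it was 876, 435, 9273, 344, 3858 and 98.7 in tumours 1 to 6. With anti-CD40 it was 459, 31038, 30160.3, 35560.1, 2213 and 163149, and with the combination 376, 44954, 9201, 19998 and 59095. Anti-CD40 tumours 2 to 6 and combination tumours 2 to 5 lay above every untreated tumour, and the first tumour of each group did not. The differences of 6.92 ± 2.14 (adjusted p = 0.0301) and 6.68 ± 2.23 (adjusted p = 0.0269) were the largest of the list in both comparisons and passed by limma. Cela1 (chr15:100674421-100687921), the most abundant of the class, was at 324, 479, 8704, 13339 and 100398 in untreated tumours, 1189 to 72396 (median 5843) with beta-glucan, 1362 to 2980908 (median 397720.0) with anti-CD40 and 4114 to 567746 (median 268534) with the combination. It did not pass, at 4.84 ± 1.98 (adjusted p = 0.0977) and 4.68 ± 2.06 (adjusted p = 0.0893), nor did Cela3b, at 5.65 ± 2.11 and 5.63 ± 2.20.

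Carboxypeptidases trim peptides from the carboxyl end. Cpa1 (chr6:30639218-30645363) was at 105, 53.5, 15790.1, 25623 and 174337 in untreated tumours, 3199.8 to 130769 (median 18126) with beta-glucan, 2643 to 1741818 (median 226666) with anti-CD40 and 2961 to 313918 (median 163215) with the combination. With 4.87 ± 2.10 (adjusted p = 0.118) and 4.72 ± 2.19 (adjusted p = 0.107) it did not pass. Cpb1, the partner that acts on basic residues, was at 5.32 ± 1.97 and 5.13 ± 2.05 and did not pass either.

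Lipases split dietary fat, and Clps is the cofactor that anchors pancreatic lipase to it. Of the 6 members 1 passed, Cel (chr2:28555795-28563403), the bile salt dependent lipase. Cel was at 31.6, 15.5, 5618, 5572 and 16471 in untreated tumours and 976 to 35890.0 (median 3588) with beta-glucan. It was 1425 to 586439 (median 87157) with anti-CD40 and 1085, 118689, 38406, 84975 and 136556 with the combination, where tumours 2 to 5 exceeded every untreated tumour. The combination gave 5.52 ± 2.04 (adjusted p = 0.0432) and passed, and anti-CD40 gave 5.67 ± 1.95 with an adjusted p just above the threshold at 0.050004. Pnlip, pancreatic lipase itself (chr19:58652498-58681788), was at 1.66 to 93179 (median 5651) in untreated tumours and varied more than any other member of its class relative to the list. It reached 563 to 1471595 (median 177284) with anti-CD40 and 1774 to 326383 (median 147484) with the combination, at 6.14 ± 2.51 (adjusted p = 0.0989) and 6.13 ± 2.62 (adjusted p = 0.0803). Pnliprp1, Pnliprp2, Clps and the phospholipase Pla2g1b stood at 4.41 ± 1.89, 5.66 ± 2.18, 5.03 ± 2.02 and 4.89 ± 2.11 with anti-CD40 and did not pass in either comparison.

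Amylases, which break down starch, were read at low levels. Amy2b was at 0, 0, 188, 407 and 2906 in untreated tumours, 8.62 to 2147 (median 184) with beta-glucan, 50.7 to 15235 (median 1782) with anti-CD40 and 58.5 to 5421 (median 1935) with the combination. It took at most 0.158 reads per 100 core reads in any tumour. GENCODE M21 annotates the interval named Amy2b (chr3:113147656-113156727) as an unprocessed pseudogene in a family of near-identical copies, so its reads cannot be assigned with certainty. Neither Amy2b at 4.49 ± 2.09 and 4.73 ± 2.18 nor Amy1, the salivary type amylase, at 3.39 ± 1.32 and 3.42 ± 1.38 passed.

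Rnase1, the secreted pancreatic ribonuclease (chr14:51144998-51146785), was the most abundant of the other secreted proteins. It was at 129.8, 50.1, 18311, 22867 and 127754 in untreated tumours, 3699 to 130071 (median 16677) with beta-glucan, 3998 to 2260392 (median 310570.1) with anti-CD40 and 4505 to 562679 (median 256182) with the combination. The differences of 5.37 ± 2.04 (adjusted p = 0.0751) and 5.28 ± 2.13 (adjusted p = 0.0638) did not pass. Serpini2, a serine protease inhibitor made by acinar cells, passed with the combination at 5.34 ± 1.93 (adjusted p = 0.0395), having been at 0, 0, 169, 137 and 433 in untreated tumours and 35.4, 3799, 1017, 1649.7 and 4799 with the combination. With anti-CD40 it was at 81.9 to 8188 (median 1547) and 5.21 ± 1.85 (adjusted p = 0.0572). Klk1, a kallikrein, was at 5.33 ± 2.08 and 5.27 ± 2.17 and did not pass.

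Granule and membrane proteins of the acinar cell showed 1 call in each comparison. Aqp12, a water channel found inside acinar cells, had no read in untreated tumours 1 and 2 and was at 78.1, 17.2 and 512 in the others. It was 14.9 to 199 (median 40.3) with beta-glucan, 21.4, 1719, 1007, 751, 116 and 7449 with anti-CD40 and 13.5, 979, 393, 2176 and 1389.9 with the combination. It passed narrowly in both, at 5.19 ± 1.76 (adjusted p = 0.0463) and 4.89 ± 1.84 (adjusted p = 0.0467). Zg16, a lectin of the granule membrane (chr7:127050156-127087328), was at 17.5 to 35061 (median 3037) in untreated tumours, 511 to 22126 (median 3167) with beta-glucan, 632 to 635259.6 (median 83293) with anti-CD40 and 973 to 138154 (median 67193) with the combination, and did not pass at 5.50 ± 2.09 (adjusted p = 0.0759) and 5.28 ± 2.18 (adjusted p = 0.0706). Gp2, Sycn and Cuzd1, also proteins of the granule or its membrane, were at 4.40 ± 1.95, 5.47 ± 2.19 and 5.16 ± 2.04 with anti-CD40 and did not pass in either comparison. Erp27, a protein of the endoplasmic reticulum where enzymes fold, was at 0 to 695 (median 118) in untreated tumours, 13.4 to 748 (median 98.2) with beta-glucan, 24.9 to 9468 (median 1315) with anti-CD40 and 27.7 to 3149 (median 1866) with the combination. Its differences of 4.09 ± 1.73 (adjusted p = 0.111) and 4.27 ± 1.81 (adjusted p = 0.0774) did not pass.

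**Figure D3:**
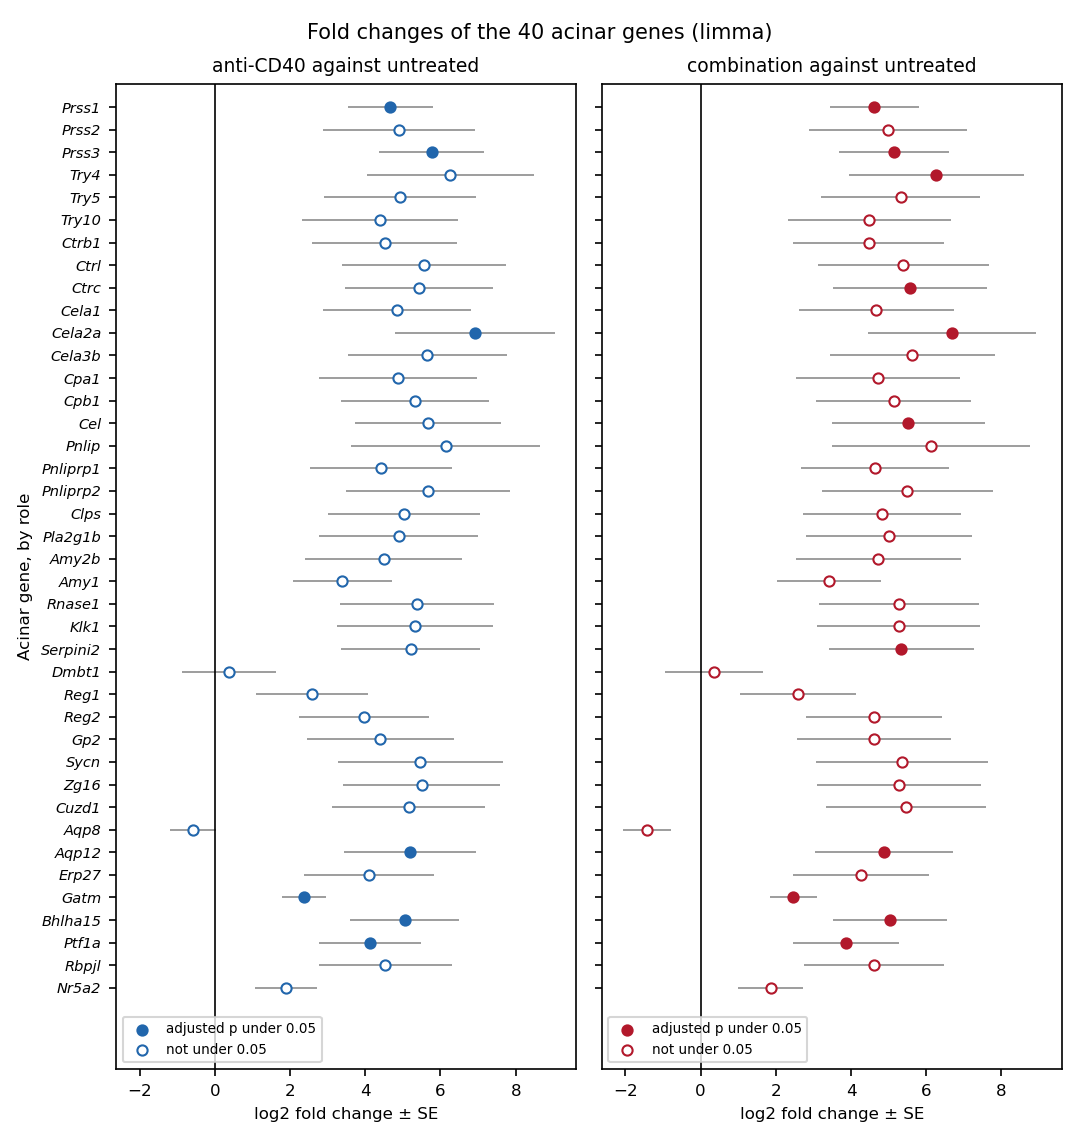
Log2 fold change (horizontal axis) of each acinar gene, ± its standard error, for anti-CD40 and for the combination against untreated tumours by limma. Filled points are the 7 and 11 genes with adjusted p under 0.05. Cela2a lies farthest to the right at 6.92 and 6.68, Dmbt1 lies near 0 and Aqp8 lies to the left of 0.

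The 4 transcription factors all had higher mean log2 levels in the anti-CD40 and combination groups, and Bhlha15 and Ptf1a passed. Bhlha15 (chr5:144190286-144194441) was at 3.33, 0, 21.1, 20.6 and 129 in untreated tumours and 17.9, 2.12, 321, 38.95, 213 and 1.92 with beta-glucan. It was 49.7, 494, 657, 598, 95.95 and 4512 with anti-CD40 and 53.4, 611, 257, 1021 and 1173 with the combination. Anti-CD40 tumours 2, 3, 4 and 6 and combination tumours 2 to 5 exceeded every untreated tumour. The log2 fold changes were 5.05 ± 1.45 (adjusted p = 0.0194) and 5.04 ± 1.52 (adjusted p = 0.0146) by limma.

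Ptf1a (chr2:19445663-19447501), which acts at the top of the acinar program, had no read in untreated tumours 1 and 2 and was at 8.77, 2.29 and 67.6 in untreated tumours 3, 5 and 6. It was 15.9, 16.98, 96.99, 3.800, 30.8 and 3.83 with beta-glucan, 5.85, 83.2, 170.3, 158, 25.95 and 676 with anti-CD40 and 0.643, 211, 102, 234 and 178 with the combination. The same 4 anti-CD40 and 4 combination tumours lay above the untreated range, and the differences of 4.12 ± 1.35 (adjusted p = 0.0358) and 3.88 ± 1.41 (adjusted p = 0.0371) passed. Its partner Rbpjl (chr2:164403141-164415448) was at 0, 0, 16.7, 33.2 and 308 in untreated tumours, 3.18 to 203 (median 51.8) with beta-glucan, 5.36 to 3888 (median 578) with anti-CD40 and 8.36 to 1356 (median 437) with the combination. At 4.54 ± 1.78 (adjusted p = 0.0846) and 4.62 ± 1.86 (adjusted p = 0.0627) it did not pass.

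Nr5a2 (chr1:136842571-136960448), which liver, intestine and other cells also express, differed least of the factors. It was at 6.66, 13.8, 6.14, 51.6 and 90.2 in untreated tumours, 5.96 to 125 (median 39.8) with beta-glucan, 14.1 to 394 (median 76.6) with anti-CD40 and 25.7 to 292 (median 63.3) with the combination. Its differences of 1.90 ± 0.83 (adjusted p = 0.116) and 1.87 ± 0.86 (adjusted p = 0.0996) did not pass.

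Bhlha15 is also expressed in plasma cells, the antibody-secreting form of B cells. Relative to the core acinar genes it was highest in 3 of the 5 tumours with the lowest acinar share of reads. It gave 1808 reads per 1000000 core reads in untreated tumour 1, 1212 in anti-CD40 tumour 1 and 1180 in combination tumour 1, against 0 to 452 in the other 19 tumours. The other 2 of those 5 were untreated tumour 2, with 0, and beta-glucan tumour 6. The untreated value rests on few reads, since that tumour held 2212 core reads. In the same tumours Jchain, a protein that joins antibody chains, was at 36.6, 3650 and 3419, and in beta-glucan tumour 6, with an acinar share of 0.662%, Bhlha15 gave 48.3 per 1000000 core reads and Jchain was at 43.1. Of the B and plasma cell list, all 12 genes tested were positive in both comparisons, and 11 were called higher with anti-CD40 (11.0% of all genes) and 12 with the combination (18.2%). Its summed level was 315 to 716 in untreated tumours, 606 to 3421 with beta-glucan, 3262 to 8213 with anti-CD40 and 4134 to 12538 with the combination. The part of plasma cells in the rise of Bhlha15 was not tested.

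**Figure D4:**
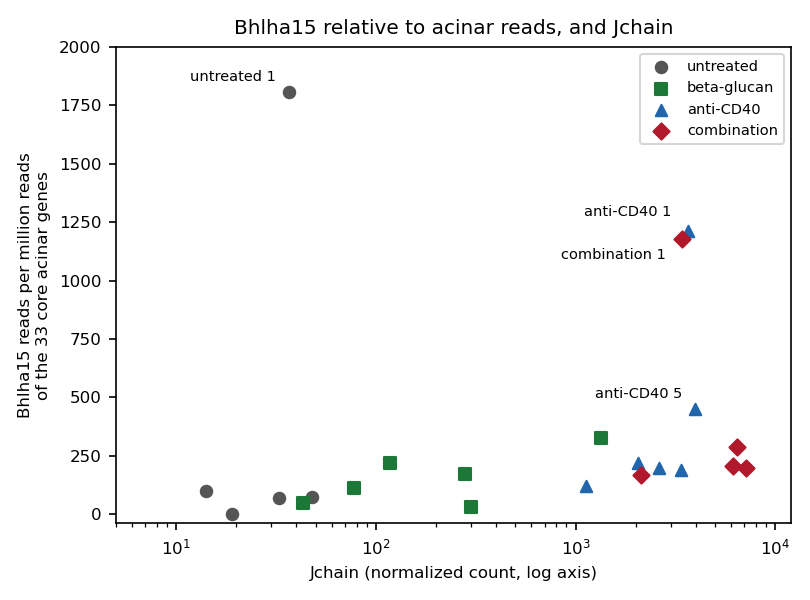
Bhlha15 reads per 1000000 reads of the 33 core acinar genes (vertical axis) against the level of Jchain (normalized count, log axis) in each of the 22 tumours. Anti-CD40 tumour 1 (1212) and combination tumour 1 (1180) lie high at Jchain levels of 3650 and 3419, and untreated tumour 1 (1808) lies high at a Jchain level of 36.6.

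Members differed in how closely they followed the summed list. The SD over tumours of the log2 ratio to the sum of all 40 genes was 2.84 for Aqp8, 1.95 for Pnlip, 1.93 for Cela2a and 1.92 for Gatm. These were the 4 largest among members with a mean of at least 30. In untreated tumours 1 and 2 Dmbt1 made up 80.5 and 80.6% of the acinar reads. Pnlip (1.66 and 29.3) and Cela2a (0 and 2.59) were low there, so their SD depends in part on this denominator. Aqp8 (chr7:123462291-123468004), a water channel of acinar and other epithelial cells, was the only member with a lower mean log2 level in both groups that received anti-CD40. It was at 119, 123, 159.7, 254 and 93.9 in untreated tumours and 104, 80.7, 149.9, 186, 92.4 and 77.6 with beta-glucan. It was 25.3, 123, 154, 146, 15.7 and 573 with anti-CD40 and 28.9, 37.2, 40.02, 121 and 70.8 with the combination. Anti-CD40 tumour 6, with the most acinar reads, was above every untreated tumour, and anti-CD40 tumours 1 and 5 and combination tumours 1, 2, 3 and 5 were below all of them. The differences of -0.59 ± 0.62 (adjusted p = 0.565) and -1.43 ± 0.65 (adjusted p = 0.094) did not pass by limma, and edgeR put the anti-CD40 difference at 0.15 and DESeq2 at 0.19.

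Gatm (chr2:122594467-122611303), which makes the creatine precursor in acinar and kidney cells, had the smallest standard errors of the list. It was at 37.4, 34.5, 28.95, 43.5 and 111 in untreated tumours and 61.6, 60.5, 202, 37.1, 132 and 68.04 with beta-glucan. With anti-CD40 it was 61.4, 263, 214, 372, 119.5 and 1098, and with the combination 95.2, 587, 156, 296 and 401. All anti-CD40 and combination tumours were above untreated tumours 1, 2, 3 and 5, and anti-CD40 tumours 2 to 6 and combination tumours 2 to 5 were above untreated tumour 6 as well. Gatm passed at 2.36 ± 0.59 (adjusted p = 0.00688) and 2.47 ± 0.62 (adjusted p = 0.00345) and under all 32 alternatives listed for each comparison, though not with anti-CD40 in the added model with the acinar level.

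Dmbt1 was at 13236, 14800.0, 21272, 27033 and 51874 in untreated tumours, 5478 to 90622 (median 11149) with beta-glucan, 2234 to 282540.1 (median 55623) with anti-CD40 and 904 to 94859 (median 67478) with the combination. The lowest 2 of all tumours were combination tumour 1 and anti-CD40 tumour 1. Its differences of 0.36 ± 1.25 (adjusted p = 0.879) and 0.35 ± 1.31 (adjusted p = 0.866) did not pass, and both turned negative (-0.22 and -0.11) when tumours were scaled to equal totals, a scaling that moved the median of all genes by -0.56 and -0.45. Reg1 and Reg2, secreted proteins that rise in pancreatic injury, had fold changes below the list median. Reg1 (chr6:78422711-78428667) was at 1152, 2033, 6535, 10159 and 39103 in untreated tumours, 2394 to 60100.3 (median 5219) with beta-glucan, 1474 to 476139.7 (median 72661) with anti-CD40 and 1094 to 108693 (median 98409.6) with the combination, and stood at 2.58 ± 1.48 (adjusted p = 0.252) and 2.59 ± 1.55 (adjusted p = 0.217). Reg2 was at 3.97 ± 1.74 (adjusted p = 0.124) and 4.61 ± 1.81 (adjusted p = 0.0578), and neither passed.

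The make-up of the acinar reads also differed between tumours. Cela1 gave 3.32 to 13.1 reads per 100 core reads with anti-CD40, where tumours 2, 3, 4 and 6 held 12.2, 13.1, 12.3 and 13.1 and tumours 1 and 5 held 3.32 and 6.65. It gave 5.49 to 10.9 with the combination and 2.49 to 9.67 with beta-glucan. Untreated tumours 3, 5 and 6 held 3.996, 4.59 and 5.47, while untreated tumours 1 and 2 held 17.6 and 33.97. Those 2 shares were 389 of 2212 and 555 of 1634 core reads, and why they were high was not tested. The ranges thus overlapped. Anti-CD40 tumours 2, 3, 4 and 6 lay above untreated tumours 3, 5 and 6, while beta-glucan tumour 3, with 19.2% acinar reads, held 4.92.

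Try4 gave 0.428 to 2.26 reads per 100 core reads in untreated tumours, 1.31 to 3.15 with beta-glucan, 2.15 to 5.53 with anti-CD40 and 2.95 to 5.55 with the combination, and every combination tumour lay above every untreated one. Zg16 gave 0.949 to 1.91, 1.27 to 1.81, 1.54 to 3.03 and 1.499 to 2.65 in the same order of groups, and Pnlip gave 0.0904 to 5.08, 1.06 to 3.93, 1.37 to 7.03 and 3.27 to 6.27. Both overlapped between groups. Ctrb1, Pnliprp1 and Gp2 took a smaller part in anti-CD40 tumours 2, 3, 4 and 6 than in anti-CD40 tumours 1 and 5. Ctrb1 gave 22.9, 23.6, 21.7 and 20.2 in anti-CD40 tumours 2, 3, 4 and 6, against 33.4 and 29.2 in tumours 1 and 5, 21.2 to 35.9 with beta-glucan and 19.3 to 37.9 in untreated tumours. With the combination tumour 3 held 31.2 and tumour 1, with far fewer acinar reads, 26.6. Pnliprp1 gave 2.45 to 8.41 in untreated tumours, 4.798 to 7.62 with beta-glucan, 2.72 to 5.71 with anti-CD40 and 3.83 to 5.08 with the combination, and Gp2 gave 0.904 to 1.76, 1.45 to 1.97, 0.696 to 1.32 and 0.962 to 1.401 in that order. Both untreated ranges overlapped those of the other groups. Over the list 40 of 40 members overlapped untreated tumours in this measure with beta-glucan, 37 of 40 in anti-CD40 tumours and 36 of 40 in combination tumours. Prss1, Cela2a and Rnase1 lay above every untreated tumour with anti-CD40. With the combination Prss1, Try4 and Cela3b lay above and Dmbt1 below. The measure was not taken over all genes, so these counts have no background share beside them. These shares are descriptions without a test, and a larger share of 1 gene lowers the shares of the others.

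In combination tumour 1, with a low acinar share, some genes lay within the make-up range of the rest of its group and others, Bhlha15 among them, did not. Its acinar reads were 0.619% of all reads, yet Cela1 (9.09), Try4 (4.04) and Zg16 (2.15 reads per 100 core reads) lay within the range of combination tumours 2 to 5. Cela1 also lay within the beta-glucan and untreated ranges, while Try4 and Zg16 lay above both. Bhlha15 gave 1180 reads per 1000000 core reads there, against 166 to 286 in combination tumours 2 to 5. Try10 (0.0156 reads per 100 core reads) and Pla2g1b (0.301) lay below combination tumours 2 to 5, and Amy2b (0.129) and Amy1 (0.0242) above them. Ptf1a, with 1 read in combination tumour 1, gave 14.2 per 1000000 core reads, against 43.6 to 71.4. For Cela1, Try4 and Zg16 anti-CD40 tumour 1, at 0.697%, held 3.32, 2.15 and 1.54, which were within the beta-glucan ranges. Beta-glucan tumour 3, at 19.2% acinar reads, held 4.92, 3.15 and 1.504.

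**Figure D5:**
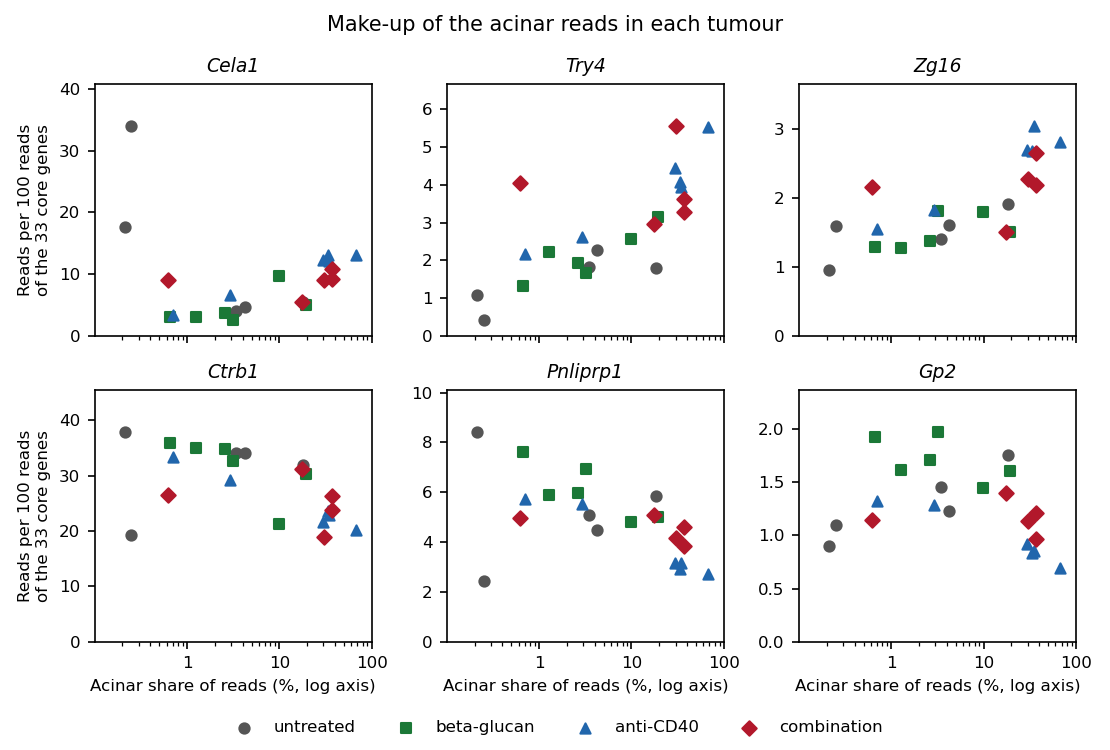
Reads of 6 acinar genes per 100 reads of the 33 core genes (vertical axes, from 0) against the acinar share of all reads (percent, log axis) in each of the 22 tumours. In the anti-CD40 tumours with 29.5 to 67.9% acinar reads Try4 and Zg16 lie above every untreated and beta-glucan tumour and Gp2 lies below every beta-glucan tumour, and combination tumour 1 lies far left at 0.619% with Cela1, Try4 and Zg16 inside the range of its group.

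With the log2 summed level of the core genes as a covariate, a model added after the data were seen, most differences between groups shrank. The covariate is made of 33 of the 40 members, so this shrinkage was built into the model and is not a separate result. The median over the list was 0.22 under anti-CD40 and 0.31 under the combination. With anti-CD40, 2 members passed (13.0% of all genes were called in either direction): Cel at 0.92 ± 0.28 (adjusted p = 0.0336) and Try4 at 0.81 ± 0.26 (adjusted p = 0.0419), by limma. With the combination, 4 passed (28.3% of all genes): Cel at 0.84 ± 0.29 (adjusted p = 0.0331), Try4 at 0.89 ± 0.27 (adjusted p = 0.0155), Gatm at 1.33 ± 0.49 (adjusted p = 0.0476) and, lower, Aqp8 at -2.41 ± 0.60 (adjusted p = 0.00415). Cel, Try4 and Aqp8 are themselves part of the covariate, and Gatm is not. Leaving out 1 tumour at a time was followed by gene for Cel and Try4 and not for Gatm and Aqp8. The calls of Cel and Try4 depended on single tumours. With anti-CD40 neither passed without untreated tumour 6 (limma adjusted p 0.261 for Cel and 0.163 for Try4), anti-CD40 tumour 1 (0.117 and 0.0799), 4 (0.0532 and 0.0643) or 5 (0.0765 and 0.0758), and the count of 2 was 0 to 4 over all tumours left out. Try4 alone also lost its call without beta-glucan tumour 1 or 2, anti-CD40 tumour 3 or combination tumour 1, at 0.0513 to 0.0702. With the combination the count of 4 was 2 to 7. There Cel lost its call without untreated tumour 6 (0.259), anti-CD40 tumour 1 (0.0533) or combination tumour 2 (0.0744) or 5 (0.0634), and Try4 without untreated tumour 6 (0.0712) or combination tumour 1 (0.1600). In this model Bhlha15, also part of the covariate, did not pass, at 1.75 ± 0.69 (adjusted p = 0.0973) and 1.78 ± 0.71 (adjusted p = 0.0634).

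Further acinar genes outside the list were mostly positive and seldom called. Of 20 tested, 17 had positive fold changes with anti-CD40 and 16 did with the combination, and the medians were 2.63 and 3.12. An unadjusted p under 0.05 was reached by 12 and 14 of the 20, against 31.2 and 43.0% of all genes. With anti-CD40 2 were called higher and 1 lower, and with the combination 4 were called higher and 2 lower. Of all genes tested 11.0 and 18.2% were called higher and 7.56 and 15.8% lower in these comparisons. The counts of calls by adjusted p were thus near the background. Cldn10, a claudin of tight junctions, rose at 3.78 ± 0.95 (adjusted p = 0.00778) and 3.92 ± 0.9959 (adjusted p = 0.00412). Tmed11, a cargo protein of the early secretory pathway, rose with anti-CD40 at 4.10 ± 1.40 (adjusted p = 0.042). Gata4, a transcription factor of the exocrine lineage, fell at -1.39 ± 0.45 (adjusted p = 0.0328) and -2.92 ± 0.47 (adjusted p = 4.17e-05). The summed level of this list was 1732 to 167530.2 in untreated tumours and 4178 to 3292059.9 with anti-CD40.

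Genes of protein folding and the secretory pathway, which acinar cells and plasma cells both use heavily, had medians closer to 0. Of 25 tested, 17 and 18 were positive in the anti-CD40 and combination comparisons, with medians of 0.59 and 0.50. With anti-CD40 4 were called higher (11.0% of all genes) and 1 lower, and with the combination 7 were called higher (18.2% of all genes) and 1 lower. Creld2, a protein induced when folding is overloaded, rose at 0.94 ± 0.17 (adjusted p = 0.00051) and 0.95 ± 0.18 (adjusted p = 0.000289). Ero1lb, the oxidase of disulfide formation that is enriched in pancreas, rose at 3.06 ± 0.84 (adjusted p = 0.0129) and 3.55 ± 0.87 (adjusted p = 0.00322), while the widely expressed Ero1l fell at -1.12 ± 0.24 (adjusted p = 0.00215) and -1.19 ± 0.25 (adjusted p = 0.0008). Of 13 genes of acinar stress and regeneration tested, 7 were positive in each comparison, with medians of 0.54 and 0.82. With anti-CD40 0 were called higher and 4 lower (7.56% of all genes lower), and with the combination 1 was called higher and 4 lower (15.8%). An unadjusted p under 0.05 was reached by 6 of the 13 in each comparison, against 31.2 and 43.0% of all genes. Those that fell in both were Clu, Krt7, Krt19 and Sox9, genes that duct-like tumour cells also express. Clu stood at -1.94 ± 0.39 and -3.28 ± 0.41, Krt7 at -2.80 ± 0.69 and -4.93 ± 0.72, and Krt19 at -1.88 ± 0.51 and -4.31 ± 0.54. Krt7, Krt19 and Sox9 are also in the duct and tumour epithelium list below, and Krt19 in the mesothelial list, so the same falls are counted again there. The 7 positive genes, not named here, reached fold changes of 5.35 and 5.43, so the named falls do not describe the list as a whole.

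Markers of neighbouring cell types were read in the same comparisons, in which 11.0 and 18.2% of all genes were called higher and 7.56 and 15.8% lower. All 16 islet genes tested were positive in both, and 10 were called higher in anti-CD40 tumours and 9 in combination tumours, among them Chga at 5.09 ± 1.12 (adjusted p = 0.00309) and 5.37 ± 1.17 (adjusted p = 0.00131), Sst at 4.80 ± 1.30 with anti-CD40 and Pcsk1 at 4.06 ± 1.13. The summed islet level was 671 to 7060 in untreated tumours, 1034 to 14454 with beta-glucan, 3182 to 111538 with anti-CD40 and 1299 to 39403 with the combination, and Sst and Pcsk1 were at 0 in the median untreated tumour. All 16 genes of duct and tumour epithelium were negative in both, and 12 were called lower in anti-CD40 tumours and 15 in combination tumours, among them Slc4a4 at -3.46 ± 0.36, Cdh1 at -3.03 ± 0.36 and Onecut2 at -4.48 ± 0.54 with the combination. Their summed level was 62278 to 98816 in untreated tumours, 42247 to 65485 with beta-glucan, 11723 to 51130.3 with anti-CD40 and 10292 to 23296 with the combination. Among B and plasma cell genes, Pou2af1 stood at 5.60 ± 0.41, Irf4 at 5.30 ± 0.50 and Jchain at 7.34 ± 0.66 with the combination. Of 9 adipocyte genes 1 was called higher and 3 lower with anti-CD40, and 2 were called higher and 2 lower with the combination, with Lpl at 1.76 ± 0.32 and 2.53 ± 0.33, Adipor2 at -0.47 ± 0.15 and -0.62 ± 0.16, and Pparg called with anti-CD40 alone at -2.79 ± 0.87. Of 3 mesothelial genes 1 was called higher and 1 lower with anti-CD40, and 1 was called higher and 2 lower with the combination, Wt1 at 1.97 ± 0.33 and Krt19 and Msln at -4.31 ± 0.54 and -4.70 ± 0.80. The part of these cell types in the acinar differences was not tested.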

How the data were processed

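The table holds 22 tumours. Its values are normalized counts, a signal the authors made by dividing gene read counts by a DESeq2 size factor per tumour; STAR, DESeq2 and mm10 are named per the submitters' processing notes, while which program counted the reads, on which annotation, and whether by strand is not given in the sources used here. All deposited values (100% of 395252) were whole multiples of 1 read within 0.001 reads, so reads and depth were recovered. Genes with a normalized count of at least 10 in at least 5 tumours (14278 of 17966) were tested on log2(normalized count + 1) with limma 3.58.1 (trended, robust, two-sided) in R 4.3.3, in 1 fit of all 22 tumours with a mean per group and Benjamini-Hochberg adjustment within each contrast. edgeR 4.0.16 and DESeq2 1.42.0 were run on the recovered reads as alternatives. The fits were tested on simulated data. Coordinates are those of GENCODE M21 (mm10). No 2 replicates agreed within sampling noise: chi-square divided by its degrees of freedom was at least 12.7 in 50 pairs.

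The 40 genes, the other lists and the tests were chosen with earlier results of these data known. Values are given for the most abundant gene of each class, all transcription factors, every member called in any comparison and the 4 that varied most against the list, and other members by fold change. Of other lists up to 3 genes are given. Of the 27 further acinar genes listed 21 were in the table. Replicate numbers were not used to pair tumours in the main fit. Other settings were other pseudocounts (0.5 and 8), no filter, other totals, other fits and leaving out each tumour. 21 gene names in the table had been turned into dates and were not used.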

Additional observations from a re-analysis of the deposited data

Results flagged for a closer look

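In groups of 5 or 6 tumours 21 of 164 sets of values held a tumour far from the others of its group, where chance alone gives about 1 in 20. Untreated tumour 6 was set apart on the high side by its acinar share of 18.3% of reads and by Prss1, at 3.29 on the log2(normalized count + 1) scale, the only untreated tumour with a Prss1 read. Combination tumour 1 was set apart on the low side for 19 genes, at these values on the same scale: Prss2 (12.30), Try5 (11.01), Try10 (3.01), Ctrb1 (13.56), Cela3b (11.11), Cpa1 (11.53), Cpb1 (11.52), Cel (10.08), Pnliprp1 (11.13), Clps (10.96), Klk1 (7.53), Dmbt1 (9.82), Reg1 (10.10), Reg2 (8.36), Gp2 (9.02), Cuzd1 (6.64), Erp27 (4.84), Ptf1a (0.72) and Rbpjl (3.23). These 19 values come from 1 tumour with an acinar share of 0.619% and are not independent of each other.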

How the results depend on the processing

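With anti-CD40 against untreated tumours the count of 7 acinar genes was 14 with a replicate block, 31 with array weights, 31 with DESeq2 and 2 with the acinar level in the model, an alternative chosen after seeing the data. Leaving out 1 tumour at a time gave 3 to 33. For the combination against untreated tumours the count of 11 was 7 with no filter, 4 with only the groups compared, 30 with the replicate block, 35 with array weights, 5 with edgeR and 4 with the acinar level in the model, and 4 to 36 with 1 tumour left out. For the combination against beta-glucan the count of 1 was 2 with equal totals, 3 with the replicate block, 3 with array weights and 6 with DESeq2, and 0 to 4 with 1 tumour left out. The cause was not tested. Replicate numbers are shared between groups, taken from the titles, though for combination tumour 5 another label gives 6. The correlation of deviations over 30 same-number pairs had a median of 0.0283 (-0.271 to 0.338), against 0.00305 over 151 other pairs. Of 22 tumours 5 matched best with their own number. Such correlations cannot settle whether the numbers pair tumours by design. With beta-glucan Prss2 became -0.34 and -0.36 and Ctrb1 -0.26 and -0.27 with edgeR and DESeq2, where 14 and 15 of the 40 genes turned sign. Dmbt1 became -0.22 under anti-CD40 and -0.11 under the combination at equal totals and -0.17 with the combination under array weights, and ranged from -0.2938 to 1.103 and from -0.0822 to 1.596 with 1 tumour left out. Aqp8 with anti-CD40 became 0.15 and 0.19 with edgeR and DESeq2. Equal totals moved the median of all genes by -0.56 under anti-CD40 and -0.45 under the combination. Prss1, Prss3 and Gatm passed against untreated tumours under every alternative that gave them a value except the model with the acinar level, where only Gatm with the combination did, and Aqp12 passed under 12 and 10 of 32. With 2212 and 1634 core reads in untreated tumours 1 and 2, low acinar genes could not be measured precisely there.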
